A study of Homo sapiens with 4 samples.

Results

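The genes described are the 4 Notch receptors NOTCH1, NOTCH2, NOTCH3 and NOTCH4, their ligands JAG1, JAG2 and DLL1, the DNA-binding factor RBPJ and the Notch targets HES1 and HEY1. They were measured in THP1 cells, a human monocytic leukemia line with the fusion gene MLL-AF9, after siRNA knockdown of that fusion. Members were chosen by gene name: each probe of the array named for 1 of these 10 genes was taken, and it was kept where its spots had a deposited quality weight above 0 on all 4 arrays. The array held 12 such probes. Of these, 10 probes for 8 genes were kept, and the probes of HES1 and HEY1 were not. In all, 17938 genes with a symbol had a kept probe. Knockdown treatments used siRNA-A or siRNA-B, each directed at the fusion breakpoint of THP1 cells, and control treatments used the non-targeting control siRNA-1 or control siRNA-2. All cells received siRNA on days 0, 3 and 6, were moved from medium with 10% to medium with 0.5% FCS on day 6 and were harvested on day 8. Each single-colour Agilent array held 1 pool of RNA from 5 independent experiments, which averages the spread between experiments, and each group had 2 arrays. The 4 arrays shared 1 slide, siRNA-B and siRNA-A in positions 1 and 2, control siRNA-1 and control siRNA-2 in positions 3 and 4, and slide position and treatment cannot be told apart.

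Notch receptors are single-pass membrane proteins that are activated by ligands of the Jagged and Delta families on neighbouring cells. Ligand binding exposes the receptor to a metalloprotease and then to gamma-secretase, and the freed intracellular domain joins RBPJ and a Mastermind coactivator on DNA to switch on genes such as HES1 and HEY1, which encode repressors. In blood formation the pathway is known for directing precursors to the T cell lineage, and its role in myeloid leukemia depends on the cell context.

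Values are log2 intensities as deposited, without normalization between arrays, and differences are log2 fold changes of knockdown minus control. The threshold for a call was an unadjusted p of 0.005 in limma, and the adjusted p is the Benjamini-Hochberg value over all 26219 probes. With 2 arrays against 2, the smallest two-sided exact permutation p is 0.333, and limma reaches smaller values by sharing variance information between probes. The median log2 intensity was 8.56 to 8.65 on the 4 arrays, and 70.0% to 74.3% of spots were well above background. Both probes of MLLT3, the gene of the AF9 moiety, were called lower (-0.76 and -0.63), the former in 14 and the latter in 8 of 14 alternatives, and they do not separate the fusion from the wildtype transcript. Of the monocytic markers 9 of 11 had a probe, all well above background on every array. CD14 rose by 1.05 (adjusted p = 0.0355 in limma, 0.166 to 0.556 after normalization or background subtraction and 0.482 to 1.0 with 1 array left out) and ELANE fell by 0.47 (adjusted p = 0.277 in limma, called here and in 6 of 14 alternatives, none of them the omission of an array), and the summed intensity of the 9 markers, most of it from ELANE, was 155074 and 155970 on the knockdown arrays against 185516 and 192676 on the control arrays. The lower sum follows ELANE, the brightest of the 9, and does not describe the markers as a set. Their median log2 fold change was -0.028, beside -0.021 for all genes with a symbol. Of 22 measured markers of T, B, erythroid, megakaryocytic, endothelial, fibroblast and epithelial cells, limma called 0 and gave 2 with an unadjusted p under 0.05. The summed intensities of the 22 were 11000 and 12481 after knockdown and 11312 and 12464 in controls. Of these 22 markers 17 were flagged well above background on all 4 arrays, so that this flag does not tell cell types apart. The part of these markers in the results below was not tested. In bulk RNA, fewer cells with a transcript and less of it per cell cannot be told apart.

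Of the 10 kept probes, 1 was called, the NOTCH2 probe A_23_P200792, which was higher after knockdown. Over all probes 1.32% were called. The members and gene lists were chosen with earlier results of these data known, so such counts are no independent comparison. In limma the adjusted p was under 0.05 for 0 kept probes and the unadjusted p for 2 (NOTCH2 and DLL1), where the latter held for 8.06% of all probes. The 2 knockdown arrays did not overlap the 2 control arrays in 4 of the 10, higher in a NOTCH1 and a NOTCH2 probe and lower in JAG2 and DLL1, a share of 40.0% against 36.6% of all probes. The median log2 fold change of the 10 was 0.037, beside -0.018 for all probes. All 10 were well above background on all 4 arrays.

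**Figure D1:**
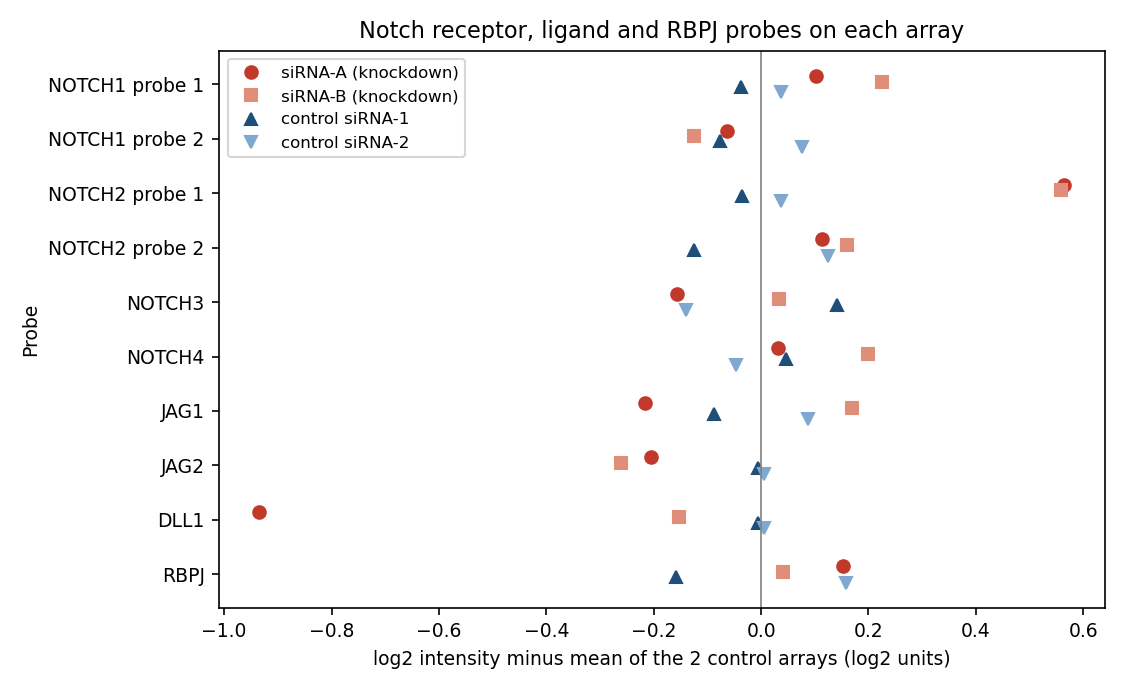
Log2 intensity of each kept probe on each array, minus the mean of the 2 control arrays of that probe (x axis, log2 units); rows are probes, and NOTCH1 and NOTCH2 have 2 probes each (probe 1 is A_23_P60387 and A_23_P200792). The NOTCH2 probe 1 knockdown arrays sit together at 0.56 and 0.57, while those of DLL1 sit at -0.93 (siRNA-A) and -0.15 (siRNA-B).

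NOTCH2 encodes a receptor that is expressed in monocytic cells. Its called probe lies nearer the 3′ end of the gene and the other probe lies within the coding sequence of the EGF-like repeats. Both are shown because they gave different results. The former is at chr1:120454858-120454917 and the latter at chr1:120539807-120539866, both on the minus strand of hg19 and 84.9 kb apart in the genome. The first 30 bases are given of the former, and all 60 of the latter, in which capitals mark the 3 cysteine codons of the reading frame.
NOTCH2 A_23_P200792: ggcccccactaataagtggtactatggtta
NOTCH2 A_33_P3258824: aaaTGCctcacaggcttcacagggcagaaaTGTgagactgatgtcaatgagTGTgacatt

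The probe A_23_P200792 had a log2 intensity of 12.07 with siRNA-A, 12.06 with siRNA-B, 11.46 with control siRNA-1 and 11.54 with control siRNA-2. The knockdown arrays differed by less than the control arrays did, and both lay above both controls. The log2 fold change of NOTCH2 was 0.56 (standard error, SE, 0.11, 95% interval 0.31 to 0.81, n = 2 arrays per group), a 1.48-fold change, with an adjusted p of 0.182 in limma. A larger rise was measured for 149 of the 26219 probes (0.568%). The rise was 0.53 to 0.60 when any 1 array was left out, and the call was then lost in each case, with the lone array of a group assumed to vary like the others.

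The coding probe A_33_P3258824 gave 10.29 with siRNA-A, 10.34 with siRNA-B, 10.05 with control siRNA-1 and 10.30 with control siRNA-2. Knockdown and control arrays overlapped, since siRNA-A lay just below control siRNA-2. Its log2 fold change was 0.14 (SE 0.12, 95% interval -0.14 to 0.42, adjusted p = 0.837 in limma), and it was 0.012 without control siRNA-1 and 0.26 without control siRNA-2. The within-array difference between the probes was 1.78 (siRNA-A) and 1.72 (siRNA-B) after knockdown and 1.41 and 1.24 in the controls, which is 0.42 more after knockdown (two-sided exact permutation p = 0.333, the smallest that this design allows). The array annotation assigns A_33_P3258824 to a transcript of NOTCH2NL as well, a truncated NOTCH2-like gene copy, so this probe cannot be read as NOTCH2 alone. The called probe carries no such assignment.

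The array has 3 probes named NOTCH2NL. Their longest run of bases shared with either NOTCH2 probe was 8. The probe A_33_P3212640 read 7.52 and 7.63 after knockdown (siRNA-A, siRNA-B) and 7.33 and 7.38 in controls, and A_24_P366777 read 10.15 and 10.01 after knockdown and 9.87 and 9.94 in controls. In both, the knockdown arrays lay above the control arrays. Neither was called, with log2 fold changes of 0.22 (SE 0.11, adjusted p = 0.694 in limma) and 0.18 (SE 0.11, adjusted p = 0.764). The latter was 0.11 without siRNA-A. The arrays of A_33_P3212645 overlapped (0.12, SE 0.13).

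**Figure D2:**
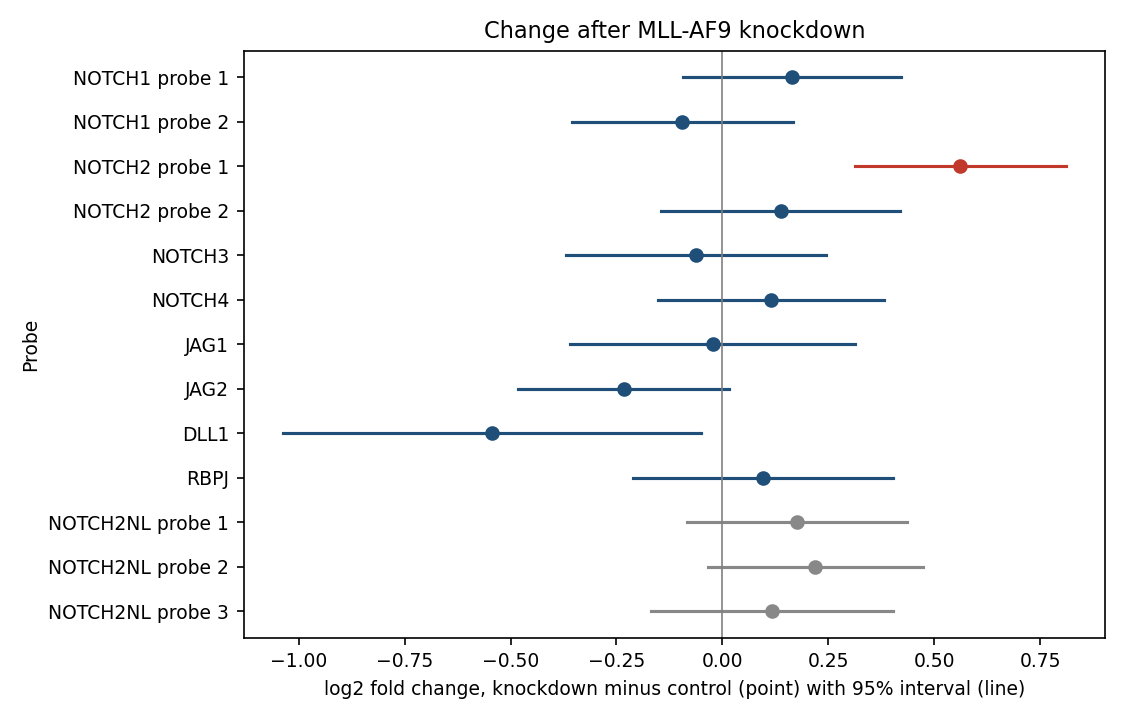
Log2 fold change of knockdown minus control in limma (point, n = 2 arrays per group) with its 95% interval (line) for the 10 kept probes and, in grey, the 3 NOTCH2NL probes (A_24_P366777, A_33_P3212640 and A_33_P3212645 from top). The called NOTCH2 probe (red) has an interval of 0.31 to 0.81, and that of DLL1 is the widest, from -1.04 to -0.05.

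NOTCH1 encodes the receptor that drives T cell development. It was measured by A_23_P60387, printed on 10 identical spots, and by A_33_P3370424, which covers the end of the coding sequence. Its sequence is given because it fixes the place of both probes: capitals mark the stop codon, and A_23_P60387, at chr9:139389764-139389823, lies downstream of it on the minus strand, while A_33_P3370424 is at chr9:139390523-139390582 (hg19).
NOTCH1 A_33_P3370424: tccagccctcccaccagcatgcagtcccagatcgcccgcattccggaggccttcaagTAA

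The mean of the 10 spots of A_23_P60387 was 8.62 with siRNA-A, 8.75 with siRNA-B, 8.49 with control siRNA-1 and 8.56 with control siRNA-2. Either siRNA read higher than both controls. In 10 of 10 spots the log2 fold change was above 0 (0.016 to 0.35), and in 7 of them both knockdown arrays exceeded both controls. These spots share 1 RNA sample per array and are no replicates of the treatment. The log2 fold change of the mean was 0.16 (SE 0.11, 95% interval -0.093 to 0.42, adjusted p = 0.782 in limma) and was not called. The coding probe A_33_P3370424 read 9.20 and 9.14 after knockdown (siRNA-A, siRNA-B) and 9.19 and 9.34 in controls. Its arrays overlapped, and its log2 fold change lay on the other side of 0, at -0.094 (SE 0.11, adjusted p = 0.887 in limma). With 1 array left out it ranged from -0.17 (control siRNA-1 omitted) to -0.018 (control siRNA-2 omitted), and that of A_23_P60387 from 0.10 (siRNA-B omitted) to 0.23 (siRNA-A omitted).

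NOTCH3 and NOTCH4 encode receptors best known from vascular cells. The NOTCH3 probe A_33_P3313055 read 6.41 and 6.60 after knockdown (siRNA-A, siRNA-B) and 6.71 and 6.43 in controls, and the log2 fold change was -0.062 (SE 0.14, 95% interval -0.37 to 0.25). The NOTCH4 probe A_23_P365614 read 7.06 and 7.23 after knockdown and 7.08 and 6.98 in controls, with a log2 fold change of 0.11 (SE 0.12, 95% interval -0.15 to 0.38) that was 0.031 without siRNA-B and 0.20 without siRNA-A. In both genes the knockdown and control arrays overlapped. That of NOTCH3 changed sign when siRNA-A (0.033) or control siRNA-1 (0.078) was left out.

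Among the ligands, DLL1, a Delta-type ligand, had the largest difference and the largest disagreement between the siRNAs. The log2 intensity of A_23_P167920 was 8.79 with siRNA-A, 9.57 with siRNA-B, 9.72 with control siRNA-1 and 9.73 with control siRNA-2. Either siRNA read lower than both controls, which differed by 0.012, but the knockdown arrays differed by 0.78. A larger difference between the knockdown arrays was measured for 235 of 26219 probes (0.896%), and its median over all probes was 0.139. The log2 fold change was -0.54 (SE 0.22, 95% interval -1.04 to -0.050), with an unadjusted p of 0.0344 and an adjusted p of 0.592 in limma, and was not called. Without siRNA-B it was -0.93 and called, and without siRNA-A it was -0.15 and not called. The probe is at chr6:170591642-170591701 on the minus strand of hg19, and no reading frame of its 60 bases is free of stop codons. Its first 30 bases are shown because the value rests on this 1 spot per array.
DLL1 A_23_P167920: atgggtgaactgaattacgcctaagaagca

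JAG2, a Jagged-type ligand, was measured by A_23_P106024 on 10 identical spots. The mean of the spots was 6.39 with siRNA-A, 6.34 with siRNA-B, 6.59 with control siRNA-1 and 6.61 with control siRNA-2. Either siRNA read lower than both controls, and the siRNAs differed by 0.055. The log2 fold change was below 0 in 10 of 10 spots (-0.48 to -0.041), and in 8 of them both knockdown arrays lay below both controls. For the mean of the spots it was -0.23 (SE 0.11, 95% interval -0.48 to 0.015, adjusted p = 0.658 in limma) and was not called. With control siRNA-1, 1 spot read 7.31 where the median of the 10 was 6.55, and 1 spot of this probe had a deposited weight below 1. Without spots of weight below 1 the log2 fold change was -0.19, and after background subtraction it was -0.36 with scaling and -0.40 without.

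**Figure D3:**
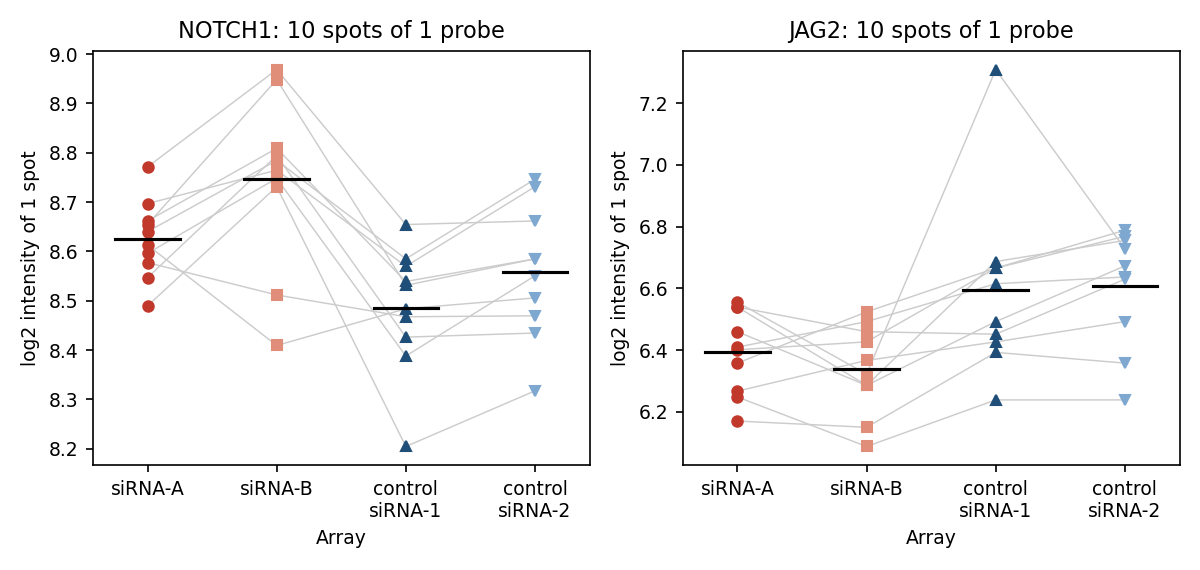
Log2 intensity of each of the 10 identical spots (points, joined by grey lines across the arrays) of the NOTCH1 probe A_23_P60387 (left) and the JAG2 probe A_23_P106024 (right), with the mean of the spots as a black bar. The spread of spots within 1 array, for instance 6.24 to 7.31 for JAG2 with control siRNA-1, exceeds the difference between the means of the groups. The 7.31 was 1 spot. Spot by spot, the log2 fold change was above 0 in 10 of 10 for NOTCH1 and below 0 in 10 of 10 for JAG2.

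JAG1, the other Jagged-type ligand measured, read 6.14 with siRNA-A, 6.52 with siRNA-B, 6.27 with control siRNA-1 and 6.44 with control siRNA-2 (A_23_P210763). The siRNA-A array was the lowest and the siRNA-B array the highest of the 4. The log2 fold change was -0.023 (SE 0.15, 95% interval -0.36 to 0.31), and its sign turned when siRNA-A (0.17) or control siRNA-2 (0.065) was left out and with normexp background correction and quantile normalization (0.034).

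RBPJ, through which all 4 receptors act on DNA, read 12.73 with siRNA-A, 12.62 with siRNA-B, 12.41 with control siRNA-1 and 12.73 with control siRNA-2 (A_23_P29994, chr4:26432686-26432745, plus strand, hg19). The control arrays differed by 0.32 and enclosed both knockdown arrays. The log2 fold change was 0.097 (SE 0.13, 95% interval -0.21 to 0.40, adjusted p = 0.904 in limma), and it was -0.062 without control siRNA-1. Pseudogenes of RBPJ exist in the human genome, and their cross-hybridization was not tested.

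The targets HES1 and HEY1 encode basic helix-loop-helix repressors and are common readouts of Notch activity. The HES1 probe A_23_P6596 aligns to 188 bases of hg19 at chr3:193854276-193854463, which is 128 more than its length, so it crosses an exon junction. It is shown because it reads through the basic region that contacts DNA: capitals mark 6 lysine and arginine codons of its open frame.
HES1 A_23_P6596: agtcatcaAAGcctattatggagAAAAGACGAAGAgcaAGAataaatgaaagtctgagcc

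On the linear scale the intensity of HES1 was 36 with siRNA-A, 44 with siRNA-B, 40 with control siRNA-1 and 41.5 with control siRNA-2, over a local background of 22 to 24. That of HEY1 (A_32_P83845) was 33 with either siRNA, 34.5 with control siRNA-1 and 31 with control siRNA-2, over a local background of 18 to 24. Neither was well above background on any array, the deposited weight was 0 on all 4, and no fold change is given. Whether either target changed after knockdown was not detectable with these probes.

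The RefSeq promoter table (GRCh38.p14, from 250 bases before to 50 after each start) held 12 promoters of 8 of the 10 genes, with no entry for DLL1 and HEY1. Both strands were searched for the RBPJ core GTGGGAA and for the shorter TGGGAA that it contains. The former occurred in 6.25% and the latter in 24.0% of 35116 promoters. HES1 and 1 of 5 RBPJ promoters held both, and the promoters of the receptors and of JAG1 and JAG2 held neither. The HES1 stretch from 130 to 51 bases before the start, chr3:194136018-194136097 on the plus strand of GRCh38.p14, is printed with the matches in capitals.
HES1 promoter: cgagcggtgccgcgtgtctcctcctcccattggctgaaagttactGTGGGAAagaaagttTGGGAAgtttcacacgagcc
A match is a run of letters and no measured binding site.

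Beyond these members, 59 genes of the pathway were read from lists by role, each by its brightest probe, and 55 had a kept probe. With the members this gave 63 genes, of which 2 were called, NOTCH2 and PTCRA, both higher (1.33% of all genes with a symbol were called). The adjusted p in limma was under 0.05 for 0 of the 63 and the unadjusted p for 7, beside 8.00% of all genes with a symbol. Knockdown and control arrays did not overlap in 25 of them (39.7%, against 36.2% of all genes), 13 higher and 12 lower. Their median log2 fold change was -0.011, beside -0.021 for all genes with a symbol.

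PTCRA encodes the pre-T cell receptor alpha chain and is a Notch target in thymocytes. It read 8.73 with siRNA-A, 8.72 with siRNA-B, 8.31 with control siRNA-1 and 8.28 with control siRNA-2. The siRNAs gave nearly equal values, both above the controls. PTCRA rose by 0.43 (SE 0.11, adjusted p = 0.322 in limma), and its call was lost when any 1 array was left out (0.42 to 0.45) and when the signal was background-subtracted, with scaling (0.50) or without (0.47). Of the 14 targets 9 had a kept probe, and the median of these was 0.016. Besides HES1 and HEY1, another 3 targets had none.

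Of the 7 ligand genes limma called 0, and the unadjusted p was under 0.05 for DLL1 and DLK2. The 7 log2 fold changes were -0.54 to -0.018 (median -0.14), where 56.2% of all genes were below 0. Those of JAG1 (0.17), DLL4 (0.17) and DLK1 (0.19) were above 0 without siRNA-A, as were JAG1 (0.065) without control siRNA-2 and DLL4 (0.025) without control siRNA-1. JAG1 (0.034) was also above 0 with normexp and quantile normalization, and DLK1 (0.0026) with the scaled background-subtracted signal. DLL4 was well above background on only 1 of the 2 knockdown arrays. Its value was -0.047 as deposited, and after background subtraction -0.47 with scaling and -0.51 without. In 4 of the 7 both siRNAs read below both controls, beside 21.2% of all genes. DLK2, a Delta-like protein without the canonical receptor-binding domain, read 6.86 with siRNA-A, 7.04 with siRNA-B, 7.24 with control siRNA-1 and 7.52 with control siRNA-2. Its log2 fold change was -0.43 (SE 0.13, adjusted p = 0.467 in limma), and it was -0.58 to -0.29 with 1 array left out.

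Of the 9 genes of receptor cleavage, PSENEN, a subunit of gamma-secretase, had the lowest value. It read 11.63 with siRNA-A, 11.64 with siRNA-B, 12.02 with control siRNA-1 and 11.97 with control siRNA-2, with both siRNAs below both controls. Its log2 fold change was -0.36 (SE 0.11, adjusted p = 0.450 in limma) and was not called. The other 8 ranged from -0.21 to 0.12, and the list had a median of -0.024. In 2 of the 9 (22.2%), PSENEN included, both siRNAs read below both controls, beside 21.2% of all genes. NUMBL, an endocytic adaptor related to the Notch inhibitor NUMB, read 7.93 with siRNA-A, 8.26 with siRNA-B, 8.38 with control siRNA-1 and 8.43 with control siRNA-2. Its log2 fold change was -0.31 (SE 0.13, adjusted p = 0.618 in limma), and it was -0.14 without siRNA-A and -0.47 without siRNA-B.

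In the remaining lists no gene was called. The 5 glycosyltransferases, which modify receptors, ranged from -0.012 to 0.20 (median 0.098). The 3 genes of ligand endocytosis ranged from -0.10 to -0.0073, and the 11 co-repressors with a kept probe from -0.027 to 0.19 (median 0.0072). The 8 genes of the nuclear activator complex ranged from -0.30 for MAML3, whose arrays overlapped, to 0.45 for MAML2 (median 0.042), both of them Mastermind coactivators. The value of MAML3 was -0.52 when siRNA-A was left out and -0.091 when siRNA-B was, -0.46 when control siRNA-1 was left out and -0.15 when control siRNA-2 was, and after background subtraction it was -0.51 with scaling and -0.54 without. MAML2 had a log2 fold change of 0.45 (SE 0.12, adjusted p = 0.382 in limma), but it was well above background on 1 of the 2 knockdown arrays and on 0 control arrays. After background subtraction its value was 2.28 with scaling and 2.25 without. MAML2 and MAML3 fall outside the rule for named genes and were picked once their values had been seen.

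**Figure D4:**
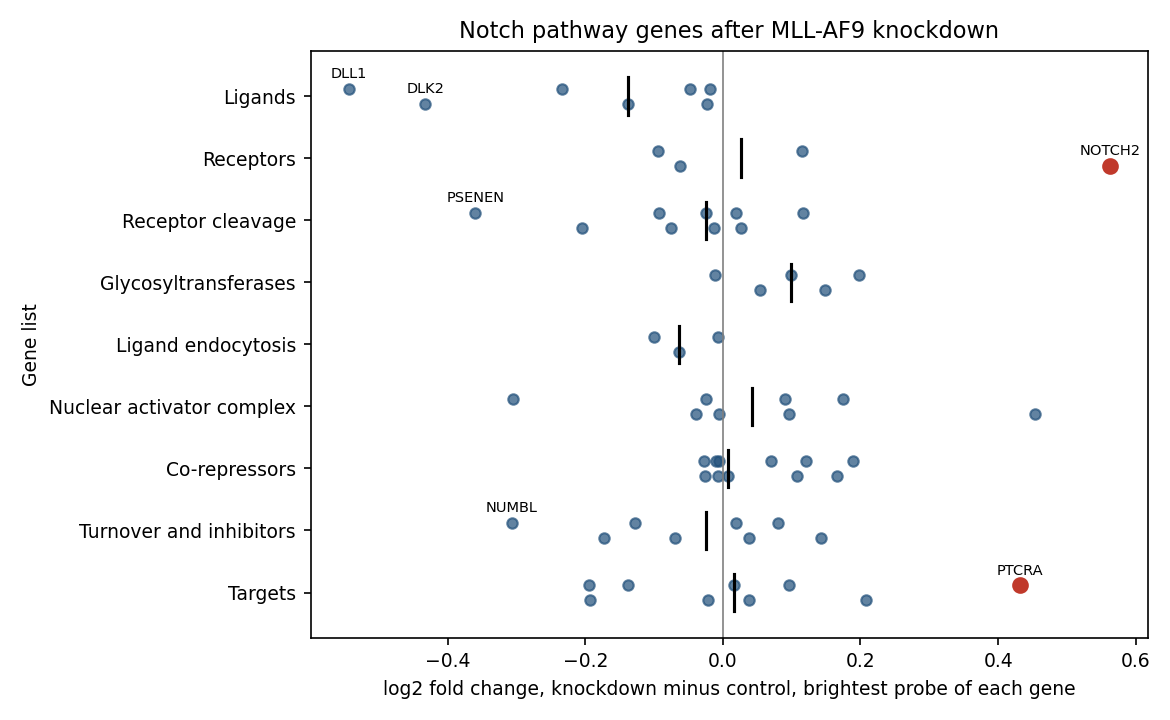
Log2 fold change (x axis, knockdown minus control) of the brightest probe of each Notch pathway gene with a kept probe, by list; black bars are list medians and red points are called genes. The called genes NOTCH2 (0.56) and PTCRA (0.43) lie to the right, and the 7 ligands lie between -0.54 and -0.018; genes that are on 2 lists appear in each, and unlabelled points were not named by the rule.

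Among the probes with a profile over the 4 arrays most like that of the called NOTCH2 probe, by the root mean square difference of centred log2 intensities among 20663 probes with a symbol, were those of SORL1, a sorting receptor (0.0192), SMPDL3A, a phosphodiesterase (0.035), HEG1, a membrane protein of endothelial junctions (0.0368), and SERPINB10, a protease inhibitor (0.0411). Their log2 fold changes were 0.51 (SERPINB10 and SMPDL3A), 0.59 (SORL1) and 0.62 (HEG1). All 4 were called with all arrays, and with 1 array left out only HEG1 was, without siRNA-B. After background subtraction SMPDL3A was 0.81 with scaling and 0.77 without, and it was 0.31, and not called, with normexp and quantile normalization. HEG1 was not called with scaled background subtraction. These probes were picked for likeness to a called probe, so similar fold changes and calls follow from the choice. This ordering over 4 arrays is a description and no evidence of shared regulation.

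**Figure D5:**
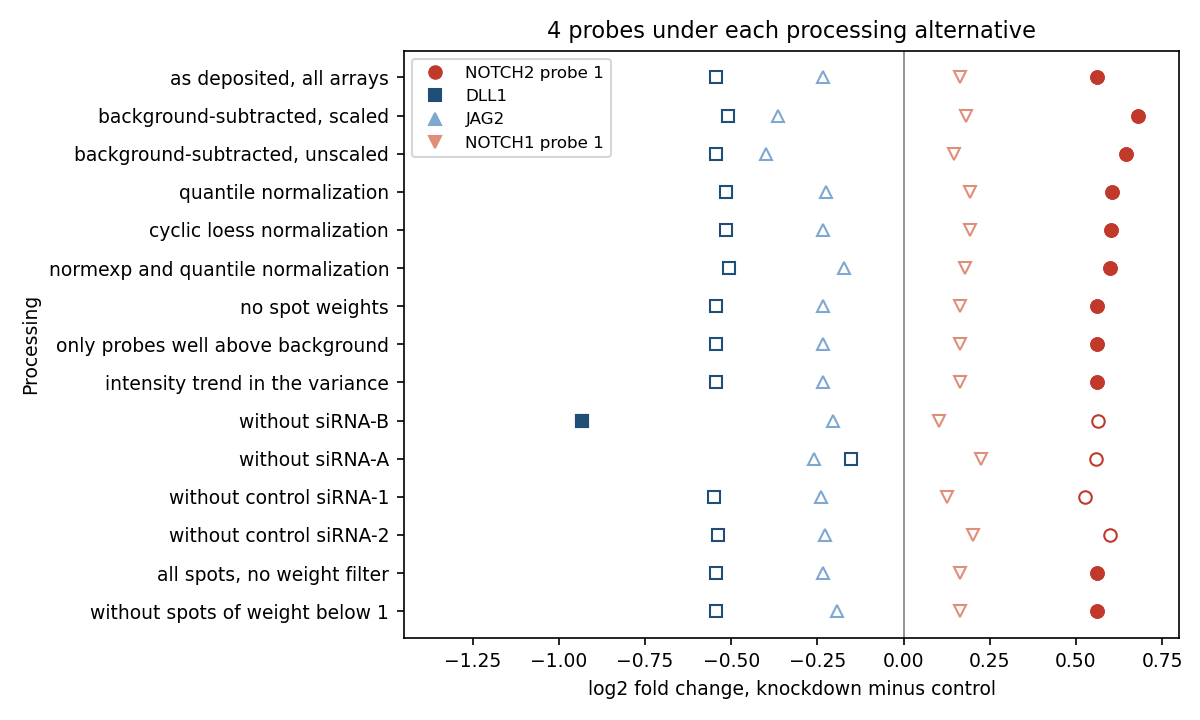
Log2 fold change of 4 probes (x axis, knockdown minus control) under each processing alternative (rows), filled where the unadjusted p in limma was under 0.005 and open otherwise. NOTCH2 probe 1 (A_23_P200792) lies between 0.53 and 0.68 in every row, while DLL1 moves from -0.93 without siRNA-B to -0.15 without siRNA-A.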

How the data were processed

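Single-colour arrays of 4 pooled RNA samples were scanned by the authors and extracted with Agilent Feature Extraction 10.5.1.1. The deposited table holds an intensity per spot, the median pixel signal, with no background correction and no normalization across arrays, and the authors deposited a quality weight score for each spot, whose rule is not given in the sources used here. Scanner tables deposited per array hold the background-subtracted intensity, the local background and the detection call, per the file headers. Of 43118 non-control spots, those weighted above 0 on all arrays were kept (33323, on 26219 probes), and 9795 were left out, none of which was well above background on any array.

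Identical spots were averaged per probe on the log2 scale. All probes were fitted together in limma 3.58.1 (R 4.3.3) with no covariates (two-sided), using limma on unnormalized intensities and the threshold of the study's methods. The use of the deposited weights and of spot means was chosen here, and the further test over identical spots that those methods required entered as an alternative (single spots). The pipeline was tested on simulated data. Members and gene lists were chosen with earlier results of these data known. Named were all member probes, list genes with an unadjusted p under 0.05, non-overlapping groups and detection on every array of at least 1 group, and the 5 probes most like the called NOTCH2 probe, of which 1 is not reported here. Markers, MLLT3, NOTCH2NL, DLL4, DLK1, MAML2 and MAML3 are named beside this rule. Alternatives were background-subtracted signal (scaled to the 75th percentile or unscaled), quantile and cyclic loess normalization, normexp (offset 50) with quantile normalization, a filter on dim probes, no spot weights, a variance trend, and omission of each array, and for counts an adjusted p under 0.05, single spots and any probe of a gene. Dropping the weight filter and leaving out spots of weight below 1 were added after seeing the data. Probe positions are hg19 and promoters GRCh38.p14, and these were not mixed. The number of arrays limits the precision.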

Additional observations from a re-analysis of the deposited data

How the results depend on the processing

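Of 31 probes examined 25 kept their direction under each of their alternatives (up to 14). The exceptions were JAG1, NOTCH3, RBPJ, DLL4, DLK1 and the NOTCH2NL probe A_33_P3212645. With 1 array left out JAG1 was -0.22 to 0.17, NOTCH3 -0.20 to 0.078 and RBPJ -0.062 to 0.26. Likewise DLL4 was -0.26 to 0.17 (0.025 without control siRNA-1), DLK1 -0.23 to 0.19 and the NOTCH2NL probe -0.0059 to 0.24. JAG1 was 0.034 with normexp and quantile normalization, and DLK1 0.0026 with the background-subtracted signal scaled. DLL4, -0.047 in the main analysis, was -0.47 after background subtraction with scaling and -0.51 without. The count of member probes called, 1 in the main analysis, was 0 to 1 with 1 array left out and 0 at an adjusted p under 0.05 in limma (2 at an unadjusted p under 0.05), and the 1 without siRNA-B was DLL1, not NOTCH2. The count of Notch pathway genes called, 2, was 0 to 1 with 1 array left out (DLL1 without siRNA-B) and 0 at an adjusted p under 0.05. With the background-subtracted signal it stayed 2, with MAML2 in place of PTCRA, and it was 3 without spots of weight below 1, where MAML2 was called as well. Over all probes, 345 were called, 213 with the background-subtracted signal scaled to the 75th percentile, 78 to 242 with 1 array left out (88 without control siRNA-1 and 78 without control siRNA-2) and 31 at an adjusted p under 0.05, a number that was 0 under each normalization, with background subtraction, without the weight filter and with any 1 array left out (795 to 2638 at an unadjusted p under 0.05 in limma). The NOTCH2 probe A_23_P200792 was called in 10 of 14 alternatives, the exceptions being the omission of each array, and its adjusted p ranged from 0.101 to 1.0. The shift of the median of all probes was within 0.1 in every setting, from -0.058 to 0.011. No paired analysis was possible because each array held pooled RNA under a different siRNA, with no partner array in the other group. For HES1 and HEY1 the signal over background limits any statement. The causes of these changes were not tested.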
